A study of Mus musculus with 9 samples.

Results

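The genes described here are 10 components of the Notch pathway, taken by symbol from the 46517 genes of the expression tables: the ligands Jag1, Jag2, Dll1 and Dll4, the receptors Notch1, Notch2 and Notch3, and the target genes Hes1, Hey1 and Atoh1. Their expression was measured by RNA sequencing of 9 duodenal organoid cultures, which were transduced with Ad-GFP, Ad-hHIF2 or Ad-hHIF1, with 3 samples in each group. The organoids are epithelial cultures grown from duodenal crypts of wild-type C57BL/6J mice in Matrigel with L-WRN conditioned medium, a source of Wnt3a, R-spondin and noggin, and were kept at 5% oxygen and 5% CO2. All 3 groups received 50 viral particles per cell, and their RNA was collected after about 72 hours. For transduction the organoids were digested to single cells. Their medium afterwards also held a ROCK inhibitor, an inhibitor of the TGF-beta receptor kinase and nicotinamide. Ad-GFP expresses green fluorescent protein and is the control for transduction. Ad-hHIF2 and Ad-hHIF1 express human hypoxia-inducible factors with proline-to-alanine substitutions that prevent their degradation by VHL, so expression of the factor was transient and came from a virus rather than from the mouse locus. The age and sex of the mice are not given in the sources used here.

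Notch signaling passes between neighboring cells. A ligand of the Delta-like or Jagged type on a cell binds a Notch receptor on the next, the receptor is cut by an ADAM protease and then by gamma-secretase, and the released intracellular part enters the nucleus, where it joins the DNA-binding protein RBPJ and a Mastermind coactivator to switch on targets such as Hes1 and Hey1. In the intestinal crypt, Hes1 represses Atoh1, the transcription factor that directs cells to the secretory lineages, and active Notch signaling keeps stem cells and absorptive progenitors out of that fate. Secretory cells in turn present Delta-like ligands to their neighbors.

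The labels and the cell type were checked first. The mouse gene Epas1, which encodes HIF2alpha and collects those reads of the human transgene that were assigned to it, ranged from 604 to 758 CPM (expected counts after TMM scaling for library size) in Ad-hHIF2 samples and from 1.47 to 2.20 in Ad-GFP samples. For Hif1a the Ad-hHIF1 mean was 309 CPM and the Ad-GFP mean 219.7 CPM, with every Ad-hHIF1 sample above every control, but the log2 fold change of 0.49 did not pass the test (adjusted p = 0.486, edgeR). Against Ad-hHIF2 organoids the difference in Hif1a passed (log2 fold change of Ad-hHIF2 relative to Ad-hHIF1 -0.45, adjusted p = 0.0086, edgeR). The epithelial keratins Krt8, Krt18 and Krt19 were abundant in all 9 libraries, at 764 to 1358 CPM. Cdh1 was at 204.1 to 352 CPM, Slc12a2 at 76.9 to 103.2 CPM, Krt20 at 34.3 to 53.3 CPM and the intestinal transcription factor Cdx2 at 6.55 to 8.99 CPM. Other markers of intestinal epithelium were low or at 0. Epcam ranged from 1.42 to 3.80 CPM and Vil1, encoding villin, from 3.27 to 4.94 CPM. The stem cell gene Lgr5 did not exceed 1.19 CPM, and Cdx1 had 0 counts in every library. Library totals ran from 21722618 to 51119041 expected counts. Ad-hHIF1 replicate 3 stood apart, with 16% of its counts in the satellite-like genes Gm10800 and Gm26870, against 0.433% to 4.28% in the other libraries. Ad-hHIF2 replicate 1 stood apart in its TMM factor, which was 1.31, against 0.907 to 1.027 in the other libraries.

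Of the 10 genes, 9 were expressed highly enough to be tested. Atoh1 had 0 counts in all 9 libraries, which allows up to 0.0589 to 0.150 CPM per library and 0.00954 CPM over all of them (3 counts, counting error only). Positions are those of the GENCODE annotation of GRCm38, matched by Ensembl identifier. Jag1 (ENSMUSG00000027276) lies on chr2:137081456-137116644, minus strand, and Jag2 (ENSMUSG00000002799) on chr12:112907819-112929776, minus strand. Dll1 (ENSMUSG00000014773) lies on chr17:15367354-15376872, minus strand, and Dll4 (ENSMUSG00000027314) on chr2:119325784-119335962, plus strand. Notch1 (ENSMUSG00000026923) lies on chr2:26457903-26516663, minus strand, Notch2 (ENSMUSG00000027878) on chr3:98013527-98150361, plus strand, and Notch3 (ENSMUSG00000038146) on chr17:32120820-32166852, minus strand. Hes1 (ENSMUSG00000022528) lies on chr16:30064384-30067796, plus strand, Hey1 (ENSMUSG00000040289) on chr3:8663359-8667256, minus strand, and Atoh1 (ENSMUSG00000073043) on chr6:64729125-64731245, plus strand. All are protein-coding genes, and values are for whole genes, exons and untranslated parts together. Dll1 overlaps the noncoding gene A930024N18Rik on the other strand, which had 6.56 to 25.2 counts per library. Dll4 overlaps Gm14207 on the other strand, which had 0 to 7 counts per library, where Dll4 itself had 4 to 19. Notch3 overlaps Gm17276 on the other strand, with at most 7 counts. Notch1 overlaps 0610009E02Rik and Gm13568 on the other strand, with at most 21.55 and 7.99 counts. Notch2 contains Gm42819 and Gm42820, with at most 113 and 100.47 counts. Because the strandedness of the libraries is not given in the sources used here, reads of genes overlapping on opposite strands may not have been told apart. Gm42819 and Gm42820 lie on the same strand as Notch2, so strandedness would not separate their reads from those of Notch2.

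The HIFs bind DNA at a short core, ACGTG or GCGTG, and RBPJ binds TGGGAA. Both were searched on both strands, and matches that overlapped were each counted. RefSeq promoter sequences of GRCm38.p6 were given for 8 of the 10 genes and not for Hes1 and Hey1. In the 250 bases before the RefSeq transcription start, 7 of the 8 genes had at least 1 HIF core, against 38.6% of 32851 promoters of that length, and 0 of 8 had the RBPJ core, against 21.6%. The windows of these genes were 55.6% to 87.2% G or C, and the shares of all promoters were not matched for this content. Those shares also count promoters, whereas the 8 are counted by gene. Whether these genes differ from others in HIF cores was not tested. Jag1 had 2 HIF cores, Jag2 1, Notch2 1, Dll1 2 at each of 2 starts, Dll4 1, Notch3 2, Atoh1 3 and Notch1 0. Genes with a core included Jag1 and Jag2, which fell with HIF2, Notch2 and Dll1, which rose, and Atoh1, which was not detected. The sequences shown are those of the gene with the largest change and of the receptor and ligand that rose, 5′ to 3′ on the gene's own strand, cut to the bases that also lie before the GENCODE gene start. They cover chr2:137116645-137116770 for Jag1 (126 bases, minus strand), chr3:98013288-98013526 for Notch2 (239 bases, plus strand) and chr17:15376933-15377182 for Dll1 (250 bases, minus strand). Capitals mark the HIF cores. The RefSeq windows of Jag2 and Notch1, and 1 of the 2 windows of Dll1, lie inside the GENCODE gene and are not shown. The counts of cores for these windows, including the 0 of Notch1, thus do not describe the bases before the GENCODE start. A match describes these letters and is not evidence of binding.
Jag1: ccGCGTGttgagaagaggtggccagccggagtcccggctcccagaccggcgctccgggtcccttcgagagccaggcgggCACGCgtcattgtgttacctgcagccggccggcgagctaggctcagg
Notch2: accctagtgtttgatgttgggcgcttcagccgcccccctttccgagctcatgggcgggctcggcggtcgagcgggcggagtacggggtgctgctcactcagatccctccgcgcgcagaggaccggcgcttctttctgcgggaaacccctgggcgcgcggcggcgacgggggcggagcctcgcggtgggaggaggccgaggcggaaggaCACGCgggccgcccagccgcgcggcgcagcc
Dll1: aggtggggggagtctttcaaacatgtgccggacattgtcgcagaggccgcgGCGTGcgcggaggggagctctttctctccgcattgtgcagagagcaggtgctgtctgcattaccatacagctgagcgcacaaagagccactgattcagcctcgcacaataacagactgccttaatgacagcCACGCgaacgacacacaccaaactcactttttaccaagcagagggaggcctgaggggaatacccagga

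In Ad-GFP organoids Jag1 was the most abundant of the 10 genes. Compared per length (CPM per kb of mean effective transcript length), its level was 29.6 ± 0.560 (SD, n = 3), above Notch2 at 12.9 ± 0.626, Jag2 at 11.8 ± 0.984 and Hes1 at 11.7 ± 0.647 CPM per kb. The samples of Notch2 and Jag2 overlapped, as did those of Jag2 and Hes1. Dll1 followed at 4.85 ± 0.116, Hey1 at 4.45 ± 0.270 and Notch1 at 2.58 ± 0.198 CPM per kb, and these neighbors did not overlap. Dll4 at 0.162 ± 0.0417 and Notch3 at 0.150 ± 0.0148 CPM per kb were the lowest of the detected genes and overlapped, and Atoh1 was at 0. The main ligands of the 10 genes in these cultures were thus Jag1 and Jag2. Of Notch1, Notch2 and Notch3 the main receptor was Notch2, which made up 82.1% to 83.1% of their summed level per kb in the Ad-GFP libraries. The effective length that RSEM estimated varied between libraries from 2441 to 8950 bases for Notch1 and from 721 to 3612 bases for Dll4, so their level per kb depends on the mean length used. The share of Notch2 depends on it as well. In TPM, which uses the length of each library, Notch1 was at 0.34, 0.23 and 0.9 in Ad-GFP replicates 1, 3 and 4. Notch2 was at 1.53, 1.61 and 1.62 TPM there.

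The order of levels was different in Ad-hHIF2 organoids. Notch2 was first at 17.9 ± 0.551 CPM per kb (SD, n = 3), followed by Hes1 at 13.1 ± 1.68 and Jag2 at 8.99 ± 0.137, and then Jag1 at 8.46 ± 0.0485 CPM per kb. Neighbors among these did not overlap between samples. Dll1 was at 6.23 ± 0.603, Hey1 at 3.18 ± 0.144 and Notch1 at 2.70 ± 0.158 CPM per kb, again without overlap. Notch3 and Dll4 were at 0.118 ± 0.0373 and 0.0848 ± 0.00579 CPM per kb and overlapped. In Ad-hHIF1 organoids Jag1 remained first at 26.1 ± 1.42 CPM per kb. Hes1 at 12.0 ± 1.16, Jag2 at 11.1 ± 1.22 and Notch2 at 10.8 ± 0.815 CPM per kb overlapped, and so did Hey1 at 5.42 ± 0.730 and Dll1 at 5.06 ± 0.467 CPM per kb.

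**Figure D1:**
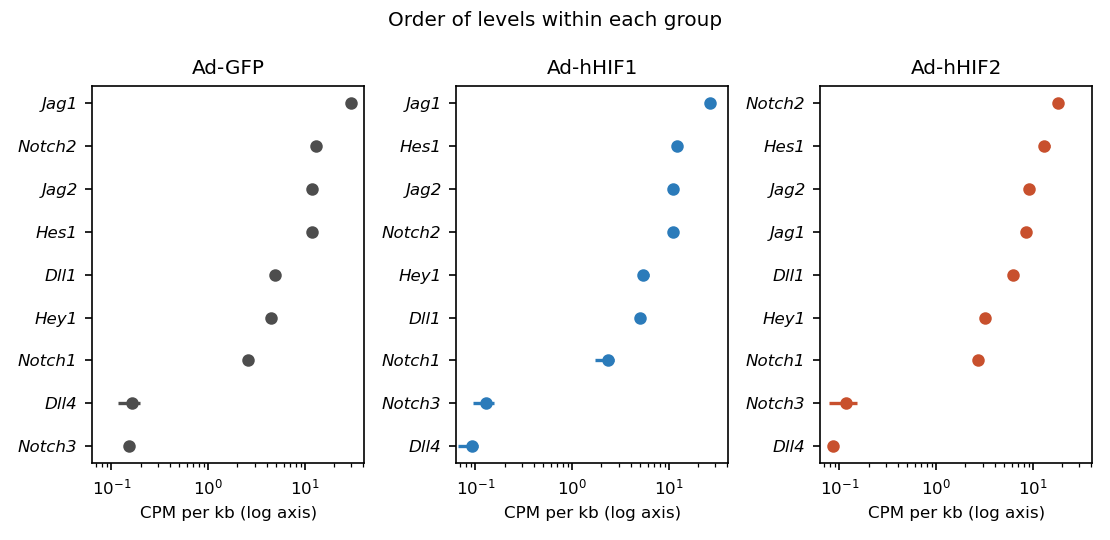
Level of each gene within Ad-GFP, Ad-hHIF1 and Ad-hHIF2 organoids, ordered from highest to lowest, in CPM per kb of mean effective length on a log axis. Points are means of 3 samples and lines their range. Jag1 is first in Ad-GFP at 29.6 and in Ad-hHIF1 at 26.1 CPM per kb, and comes after Notch2, Hes1 and Jag2 in Ad-hHIF2 at 8.46.

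The first comparison asked which Notch components changed when HIF2 was overexpressed. Jag1 fell 3.49-fold, Jag2 and Hey1 fell modestly, and Notch2 and Dll1 rose modestly, while Notch1, Notch3, Dll4 and Hes1 did not pass the test. Of the 9 genes tested, 2 were higher and 3 lower at an adjusted p below 0.05 (edgeR quasi-likelihood test, Benjamini-Hochberg over all 14987 genes). In the same fit 29.5% of all genes were called, 15.9% as higher and 13.6% as lower. Jag1 was the only gene of the 10 that also changed at least 2-fold, against 6.73% of all genes. The samples of both groups did not overlap for 6 of the 9 genes, against 45.8% of all genes. The median log2 fold change of the 9 was -0.32, and that of all genes was -0.01. These are bulk measurements, in which fewer cells of a type and less RNA per cell cannot be told apart.

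Jag1, a membrane-bound Jagged ligand, was at 118, 119.8 and 122.5 CPM in Ad-GFP replicates 1, 3 and 4. In Ad-hHIF2 replicates 1, 3 and 4 it was at 34.4, 34.1 and 34.4 CPM. The replicates of each group were close to each other and the groups were far apart. The level was thus 3.49-fold lower (log2 fold change -1.80, standard error 0.0667, 95% interval -1.96 to -1.65, adjusted p = 6.51e-07, edgeR), and Jag1 ranked 26 by p among all genes tested. It kept its call under all 14 alternative settings, and its log2 fold change with any 1 sample omitted ran from -1.81 to -1.78.

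Jag2, the second Jagged ligand, was at 45.9, 50.2 and 42.5 CPM in the Ad-GFP samples. The Ad-hHIF2 samples were at 35.3, 34.6 and 35.6 CPM, all below the lowest control. It fell by 0.39 on the log2 scale (standard error 0.0747, adjusted p = 0.00527, edgeR), a much smaller fall than that of Jag1. The count of Jag1 relative to Jag2 within a library, which does not depend on how libraries are scaled, was 2.57, 2.38 and 2.88 in Ad-GFP and 0.973, 0.985 and 0.966 in Ad-hHIF2 samples. All 3 Ad-hHIF2 libraries lay below all 3 controls, and 0.1 is the lowest p that 3 samples in each group can give in an exact permutation test (two-sided).

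Dll1, a Delta-like ligand that secretory progenitors of the crypt present to their neighbors, was at 13.1, 12.6 and 12.7 CPM in Ad-GFP samples. It was at 16.6, 18.0 and 14.8 CPM in Ad-hHIF2 samples, so that every Ad-hHIF2 sample was above every control. Dll1 rose by 0.37 on the log2 scale (standard error 0.0969, adjusted p = 0.0216, edgeR). Dll4, the other Delta-like ligand, had 39 counts over the 3 Ad-GFP libraries and 28 over the 3 Ad-hHIF2 libraries. Its levels of 0.519, 0.305 and 0.450 CPM in Ad-GFP and 0.206, 0.235 and 0.226 CPM in Ad-hHIF2 samples did not overlap, yet the difference was not called (log2 fold change -0.91, 95% interval -1.98 to 0.155, adjusted p = 0.179, edgeR). Dll4 is best known from endothelium, and the summed level of 9 endothelial markers was 2.15 to 3.83 CPM in Ad-GFP and 2.02 to 2.49 CPM in Ad-hHIF2 samples. Kdr, the marker with the highest mean in both groups, was at 2.38, 2.33 and 0.9998 CPM in Ad-GFP and 1.37, 0.647 and 0.841 CPM in Ad-hHIF2 samples, which overlapped (log2 fold change -1.01, 95% interval -1.97 to -0.06, adjusted p = 0.104, edgeR). Plvap, the only other marker high enough to be tested, did not pass either (0.59 on the log2 scale, adjusted p = 0.345). Of the 9 markers Cdh5, Tie1, Tek, Emcn, Erg and Sox17 were at 0 in at least 1 library. Their part in the Dll4 values was not tested.

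The balance among the ligands moved with these changes. Jag1 made up 63.2%, 62.5% and 65.6% of the summed level per kb of the 4 ligands in the Ad-GFP libraries and 35.5%, 34.8% and 36.5% in the Ad-hHIF2 libraries. The share of Dll1 was 10.1% to 10.8% in Ad-GFP and 24.1% to 28.2% in Ad-hHIF2 libraries. The share of Jag2 was 23.6% to 27.2% in Ad-GFP and 36.6% to 39.1% in Ad-hHIF2 libraries, although its own level was lower. The summed ligand level was 46.4 ± 0.699 CPM per kb in Ad-GFP and 23.8 ± 0.434 CPM per kb in Ad-hHIF2 organoids (SD, n = 3 each).

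**Figure D2:**
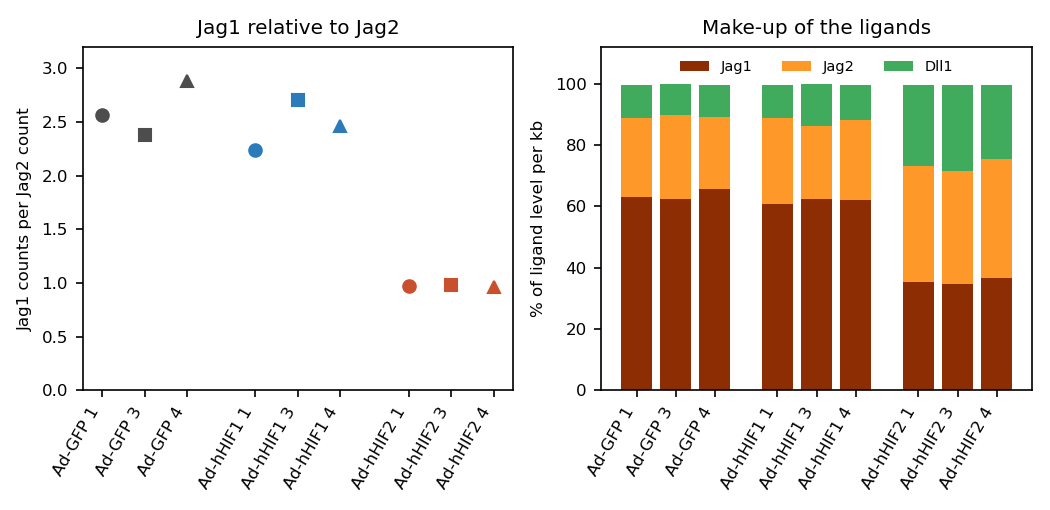
Left, Jag1 counts divided by Jag2 counts in each of the 9 libraries. Right, the share of Jag1, Jag2 and Dll1 in the summed level per kb of the 4 ligands in each library, in percent, with Dll4 as the thin remainder. The 3 Ad-hHIF2 libraries lie at 0.966 to 0.985 on the left and hold 34.8% to 36.5% Jag1 on the right, and the other 6 libraries lie at 2.24 to 2.88 and hold 60.7% to 65.6%.

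Among the receptors, Notch2 rose. It was at 130.1, 124.6 and 137.2 CPM in Ad-GFP replicates 1, 3 and 4 and at 177.5, 178.2 and 187.5 CPM in the Ad-hHIF2 replicates. The lowest Ad-hHIF2 sample was well above the highest control. It was 1.39-fold higher (log2 fold change 0.48, standard error 0.0759, adjusted p = 0.00221, edgeR). Notch1, the receptor most often studied in the crypt together with Notch2, was at 18.1, 16.0 and 18.5 CPM in Ad-GFP and at 18.2, 17.3 and 19.5 CPM in Ad-hHIF2 samples. The groups overlapped, and the 95% interval of the log2 fold change of 0.07 ran from -0.14 to 0.28 (adjusted p = 0.603, edgeR). Notch3, which is typical of mural cells, was at 1.07 to 1.30 CPM in Ad-GFP and 0.615 to 1.197 CPM in Ad-hHIF2 samples (log2 fold change -0.32, 95% interval -1.13 to 0.48). The summed receptor level was 15.7 ± 0.815 CPM per kb in Ad-GFP and 20.7 ± 0.661 CPM per kb in Ad-hHIF2 organoids (SD, n = 3 each). The count of Jag1 relative to Notch2 was 0.893 to 0.961 in Ad-GFP libraries and 0.184 to 0.194 in Ad-hHIF2 libraries.

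The target genes did not move together. Hey1, a transcriptional repressor of the Hairy family, was at 8.85, 9.42 and 9.998 CPM in Ad-GFP samples. It was at 6.63, 7.08 and 6.501 CPM in Ad-hHIF2 samples, all below the lowest control (log2 fold change -0.47, standard error 0.108, adjusted p = 0.0114, edgeR). Hes1, the repressor of Atoh1, was at 13.99, 12.5 and 13.2 CPM in Ad-GFP and at 16.9, 14.5 and 13.1 CPM in Ad-hHIF2 samples. Ad-hHIF2 replicate 4 lay within the control range, and the 95% interval of the log2 fold change of 0.17 ran from -0.08 to 0.42 (adjusted p = 0.281, edgeR). Atoh1 had no counts in either group.

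**Figure D3:**
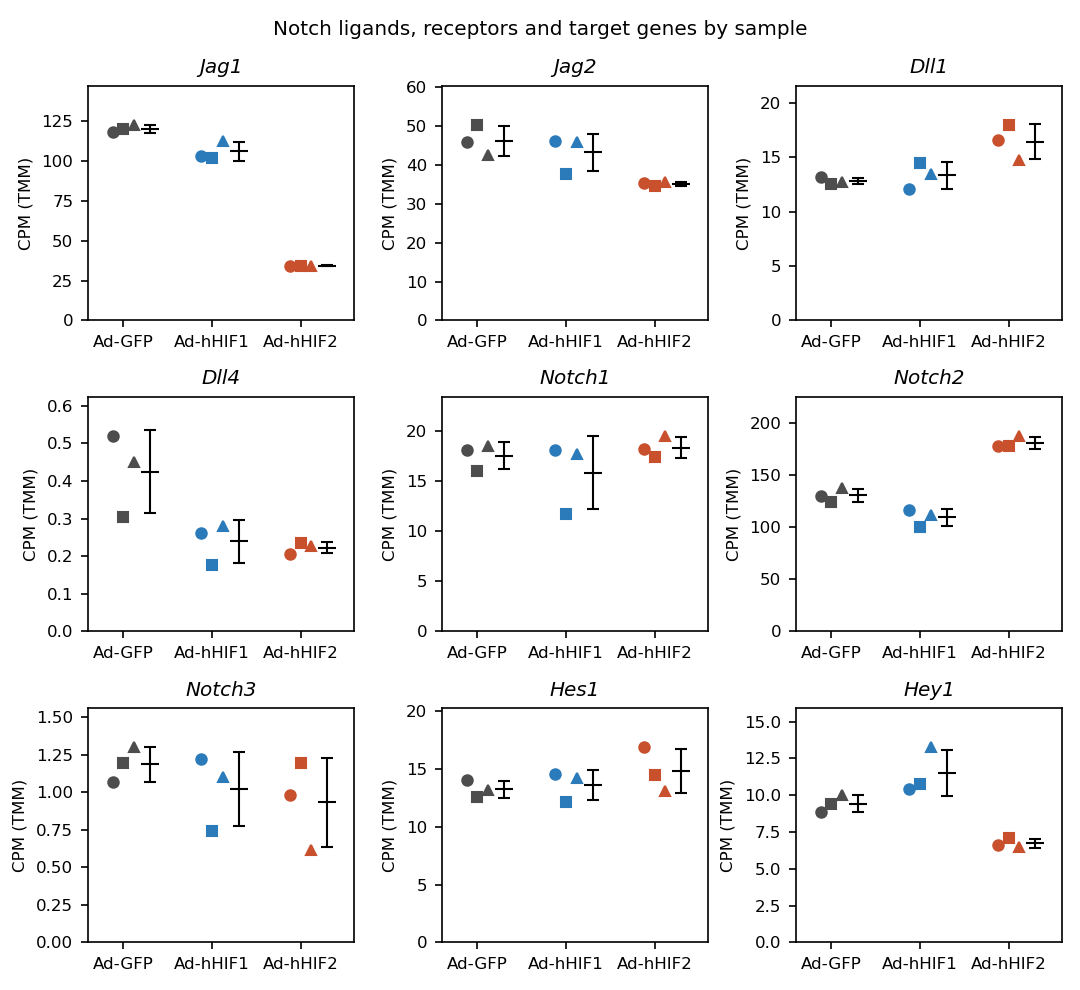
CPM (TMM-scaled) of the 9 detected genes in each sample of Ad-GFP, Ad-hHIF1 and Ad-hHIF2, on linear axes that start at 0. Circles, squares and triangles are replicates 1, 3 and 4, and the black mark with bars is the mean ± SD of 3 samples. Jag1 is at 34.1 to 34.4 CPM in the Ad-hHIF2 samples and at 102.1 to 122.5 CPM in all others.

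Several calls of the smaller changes, though not their direction, depended on single samples. Dll1 was not called without Ad-GFP replicate 3 (log2 fold change 0.34, adjusted p = 0.0764), Ad-hHIF2 replicate 1 (0.38, adjusted p = 0.0555) or Ad-hHIF2 replicate 3 (0.30, adjusted p = 0.0840), and Hey1 not without Ad-hHIF2 replicate 1 (-0.44, adjusted p = 0.0514, edgeR). With library totals in place of TMM factors, Jag2 (-0.13, adjusted p = 0.625) and Hey1 (-0.22, adjusted p = 0.449) lost their calls, and in limma on log2(TPM + 0.1) only Jag1 kept its call, Notch2 being at 0.87, Dll1 at 0.39, Hey1 at -0.03 and Jag2 at 0.06, while the median of all genes stood at 0.24 and 0.30 on these scales.

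Overexpression of HIF1 was compared with Ad-GFP in the same way, and no Notch component passed the test. Of the 9 genes tested, 0 had an adjusted p below 0.05 in edgeR, as was true of 0% of all 15233 genes. At an unadjusted p below 0.05 there were 2 of these 9 genes, Notch2 and Jag1, and 1308 of all genes. DESeq2 called 144 of all genes and none of the 9. The groups did not overlap for 4 of the 9, Hey1 above and Notch2, Jag1 and Dll4 below the controls, against 17.4% of all genes.

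Jag1 was at 103.2, 102.1 and 112.6 CPM in Ad-hHIF1 replicates 1, 3 and 4. All were below the lowest Ad-GFP sample, but the difference was small (log2 fold change -0.18, 95% interval -0.35 to -0.01, adjusted p = 0.579, edgeR). Jag2 was at 46.1, 37.8 and 45.9 CPM and overlapped the controls, with a log2 fold change of -0.10 (95% interval -0.33 to 0.14). Notch2 was at 116.5, 100.4 and 111.7 CPM, below all 3 controls, with a log2 fold change of -0.25 (95% interval -0.45 to -0.06, adjusted p = 0.517, edgeR). Without Ad-hHIF1 replicate 3, the library with the high satellite share, it was -0.19, and that of Jag1 was -0.15.

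Hey1 was at 10.4, 10.8 and 13.3 CPM in Ad-hHIF1 samples, each above the highest control. The log2 fold change was 0.29 (95% interval -0.02 to 0.60, adjusted p = 0.591, edgeR). Dll1 at 12.0, 14.5 and 13.5 CPM and Hes1 at 14.5, 12.1 and 14.2 CPM overlapped the controls. Notch1 was at 18.1, 11.7 and 17.7 CPM, its lowest value of all 9 libraries being that of Ad-hHIF1 replicate 3. Its log2 fold change of -0.14 became 0.04 without that library, and neither value passed the test.

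The direct comparison asked whether the response to HIF2 differed from that to HIF1. Relative to Ad-hHIF1, Ad-hHIF2 organoids had less Jag1, Hey1 and Jag2 and more Notch2 and Dll1. Of the 8 genes tested, 2 were higher and 3 lower (edgeR, fit of all 9 samples). Among all 15556 genes 25.8% were called, 13.7% as higher and 12% as lower. Only Jag1 changed at least 2-fold, against 6.11% of all genes, and the groups did not overlap for 5 of the 8, against 41.8%. Dll4 was too low in both groups to be tested here.

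The log2 fold change of Jag1 between Ad-hHIF2 and Ad-hHIF1 was -1.63 (standard error 0.0662, adjusted p = 1.56e-07, edgeR), a level 3.09-fold lower that kept its call under all 14 alternatives. For Notch2 it was 0.72 (standard error 0.0775, adjusted p = 9.91e-05, edgeR). The lowest Ad-hHIF2 sample was at 177.5 CPM and the highest Ad-hHIF1 sample at 116.5 CPM. Hey1 was 1.71-fold lower with HIF2 than with HIF1 (log2 fold change -0.77, standard error 0.118, adjusted p = 0.00101, edgeR). Notch2 and Hey1 thus differed more between the HIFs than between Ad-hHIF2 and Ad-GFP in these samples, the Ad-hHIF1 values lying on the other side of the control values. The interval for Hes1 ran from -0.13 to 0.38 and that for Notch1 from -0.12 to 0.53, and neither was called.

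Jag2 (log2 fold change -0.30, adjusted p = 0.0351) and Dll1 (0.30, adjusted p = 0.0474, edgeR) were close to the threshold. Dll1 lost its call in 11 and Jag2 in 9 of the 14 alternatives, including the omission of Ad-hHIF1 replicate 1, Ad-hHIF1 replicate 4, Ad-hHIF2 replicate 1 or Ad-hHIF2 replicate 3, each of which left 3 genes called, and Jag2 also without Ad-hHIF2 replicate 4. In limma on log2(TPM + 0.1) only Jag1 kept its call, with Notch2 at 0.95 (adjusted p = 0.0676) and Hey1 at -0.42 (adjusted p = 0.418).

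**Figure D4:**
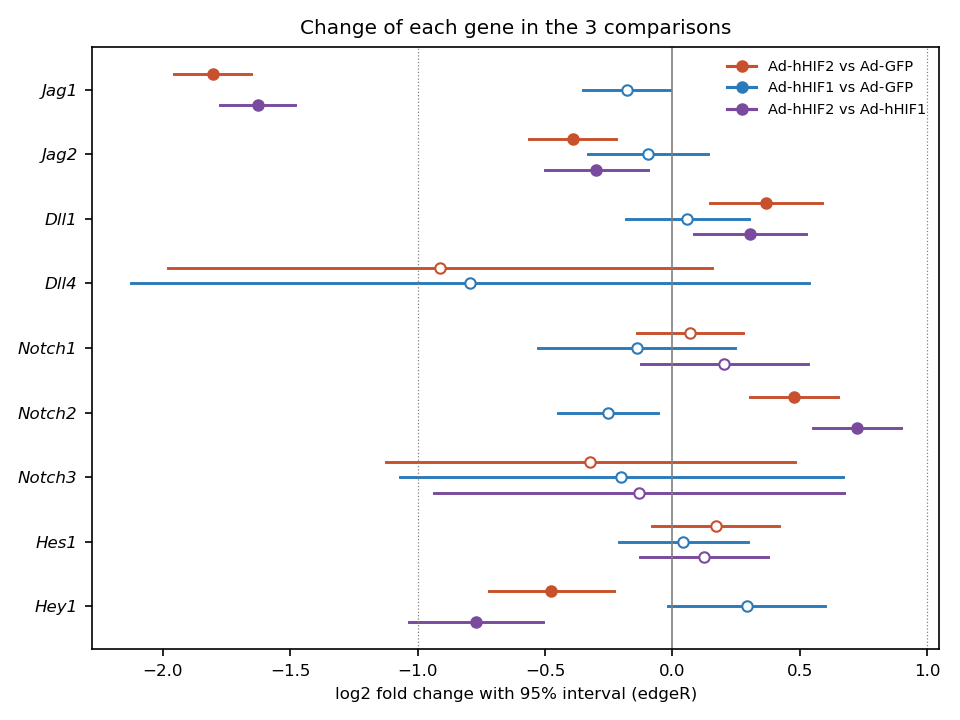
Log2 fold change of each gene with its 95% interval in the 3 comparisons, from edgeR. Filled points have an adjusted p below 0.05, open points do not, and dotted lines mark a 2-fold change. Jag1 lies at -1.80 and -1.63 in both comparisons of Ad-hHIF2, and no point of Ad-hHIF1 against Ad-GFP is filled. Dll4 was not tested between Ad-hHIF2 and Ad-hHIF1.

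The rest of the pathway was examined with a list of 63 further Notch genes. Between Ad-hHIF2 and Ad-GFP, 51 were tested, of which 17 were higher, 4 were lower and 30 did not pass. Of all genes in that fit, 15.9% were higher and 13.6% lower. The median log2 fold change of the 51 was 0.19, against -0.01 for all genes. At least a 2-fold change was called for 4 of the 51, all of them higher, close to the 6.73% of all genes. Between Ad-hHIF1 and Ad-GFP, 0 of 53 passed, and between Ad-hHIF2 and Ad-hHIF1 18 were higher and 5 lower of 53, where 13.7% of all genes were higher and 12% lower.

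The largest rise was that of Neurl3, a member of the Neuralized family of ubiquitin ligases, a family known for sending Notch ligands into the cell. It was at 9.45, 10.9 and 9.20 CPM in Ad-GFP and at 34.3, 31.8 and 30.5 CPM in Ad-hHIF2 samples (log2 fold change 1.71, adjusted p = 5.02e-06, edgeR). Every Ad-hHIF1 sample was also above every control, with a mean of 13.4 against 9.85 CPM, but that difference was not called (log2 fold change 0.44, adjusted p = 0.492, edgeR). Mib1 (0.30) and Mib2 (0.27), the Mind bomb ligases that activate ligands, were also higher, and Epn2, an endocytic adaptor, was lower (-0.24). Of the 6 genes of ligand ubiquitination and endocytosis that were tested, 3 were higher and 1 lower, against 15.9% and 13.6% of all genes. Dlk2, a noncanonical Delta-like protein, was at 1.97 to 2.75 CPM in Ad-GFP and 5.31 to 7.06 CPM in Ad-hHIF2 samples (log2 fold change 1.47, adjusted p = 0.000963, edgeR).

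Of 8 genes of receptor cleavage, 4 were higher and 0 lower, against 15.9% and 13.6% of all genes. Adam10, the protease that makes the first activating cut in Notch receptors, was at 29.3, 33.9 and 32.6 CPM in Ad-GFP and at 81.6, 80.1 and 94.3 CPM in Ad-hHIF2 samples. It rose by 1.42 on the log2 scale (standard error 0.0932, adjusted p = 1.76e-05, edgeR), and Adam17 rose by 0.30 (adjusted p = 0.0499). Adam17 was thus close to the threshold. Its log2 fold change with HIF1 was 0.23 (adjusted p = 0.617), and it was not shown to differ between Ad-hHIF2 and Ad-hHIF1 (0.07, adjusted p = 0.659, edgeR). In Ad-hHIF1 samples Adam10 averaged 37.8 CPM against 31.9 CPM in the controls, again without overlap, and was not called (log2 fold change 0.24, adjusted p = 0.509, edgeR). Within gamma-secretase, Ncstn (0.54) and Aph1b (1.18) rose, whereas Aph1a (0.27), Aph1c (0.715), Psenen (0.18) and Psen2 (-0.08) did not pass the test. None of the 5 tested genes of receptor glycosylation and furin cleavage passed, among them Lfng (-0.15), Pofut1 (0.12) and Furin (0.27).

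In the nucleus, Rbpj fell, and the genes of its activation complex went both ways. Rbpj, which carries the Notch signal to DNA, was at 93.2, 96.3 and 102.6 CPM in Ad-GFP and at 73.6, 66.2 and 67.7 CPM in Ad-hHIF2 samples (log2 fold change -0.49, adjusted p = 0.00184, edgeR). Ad-hHIF1 samples were at 101.4 to 106.4 CPM, and the difference between Ad-hHIF2 and Ad-hHIF1 also passed (adjusted p = 0.000258, edgeR). Of the 9 tested genes of the activation complex 5 were higher, namely the acetyltransferases Kat2b (0.52), Crebbp (0.44) and Ep300 (0.41), the Mastermind gene Maml2 (0.43) and Snw1 (0.30), and 2 were lower, Rbpj and the acetyltransferase Kat2a (-0.47), while Maml1 (0.34) and Maml3 (-0.27) did not pass. The corepressor genes Tle3 (0.72), Tle1 (0.37) and Hdac1 (0.31) were higher, 3 of 9 tested. For Hdac1 the Ad-hHIF1 samples lay above the controls as well, by 0.49 on the log2 scale, without passing the test (adjusted p = 0.486, edgeR), and it was not shown to differ between Ad-hHIF2 and Ad-hHIF1 (-0.19, 95% interval -0.42 to 0.03, adjusted p = 0.197, edgeR). Among regulators of receptor turnover only Itch (0.31) passed, 1 of 8. Beside these counts by role, 15.9% of all genes were higher and 13.6% lower between Ad-hHIF2 and Ad-GFP.

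Nrarp, a Notch target that feeds back on the pathway, fell. It was at 11.3, 12.7 and 12.0 CPM in Ad-GFP and at 7.89, 5.47 and 6.73 CPM in Ad-hHIF2 samples (log2 fold change -0.84, standard error 0.139, adjusted p = 0.00269, edgeR), and Ad-hHIF1 samples overlapped the controls at 10.7 to 13.8 CPM. Hes6 (-0.21) and Hes7 (-2.03, at most 1.15 CPM) did not pass against Ad-GFP, although Hes6 was lower with HIF2 than with HIF1 (-0.43, adjusted p = 0.0197, edgeR). Among detected target genes Hey1 and Nrarp were thus lower with HIF2 and Hes1 was not shown to differ. In limma on log2(TPM + 0.1), 6 of the list passed between Ad-hHIF2 and Ad-GFP in place of 21.

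**Figure D5:**
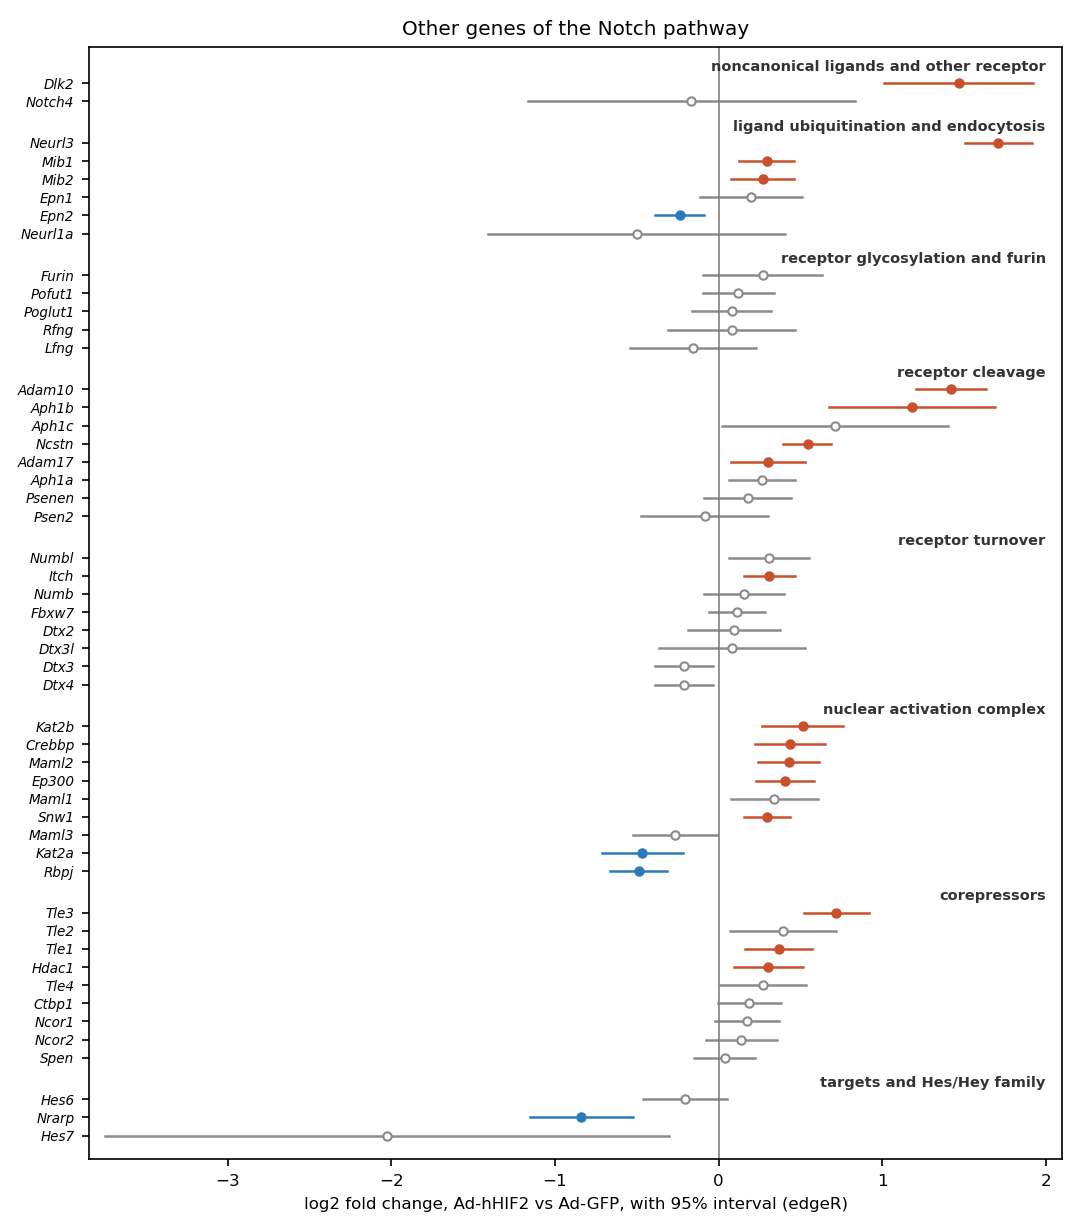
Log2 fold change between Ad-hHIF2 and Ad-GFP organoids with its 95% interval for tested genes of the Notch pathway list, grouped by role. Filled red points were higher and filled blue points lower at an adjusted p below 0.05 (edgeR), and open grey points did not pass. Neurl3, Dlk2, Adam10 and Aph1b lie above 1, and Nrarp at -0.84 is the lowest of the genes called.

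Across the 9 samples, the genes whose log2 CPM was most like that of Jag1, among 12394 genes with a mean of at least 1 CPM, were S100a7a (Pearson r = 0.998), Ptgs2 (0.997) and Dut (0.995). For Notch2 they were Col27a1 (0.993), Sptbn1 (0.992) and Tnrc18 (0.991), for Hey1 Ppme1 (0.976), Wdr36 (0.973) and Zfp141 (0.973), for Jag2 Pdf (0.992), Adss (0.967) and Wdr12 (0.965), and for Dll1 Ube2z (0.975), Lemd3 (0.963) and Arfgap3 (0.951). These values describe 9 points that share 3 conditions and their libraries, and carry no test.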

How the data were processed

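RNA sequencing covered 9 samples, grouped by the labels. The authors discarded reads of low quality and estimated abundances with RSEM. The deposited expected counts need not be whole numbers and are not normalized. The deposited TPM values, which RSEM scales for length, served only an alternative. The RSEM version, genome build, annotation and strandedness are not given in the sources used here. Counts were rounded, filtered with filterByExpr, scaled by TMM and tested with edgeR 4.0.16 (limma 3.58.1, R 4.3.3), with Benjamini-Hochberg adjustment over all genes tested. EBSeq, the study's test, was not used here. The comparisons with Ad-GFP used fits of 6 samples each, and that of the HIFs with each other a fit of 9. Standard errors came from the quasi-likelihood F statistic.

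The 10 genes and all gene lists were chosen with earlier results of these data known. Named are the 10 genes, up to 14 of the pathway list per comparison by size of change among those that passed, up to 3 of each marker list, Epas1, Hif1a and the 3 genes most like each called gene. A gene of the pathway list is counted but not reported by name here or drawn. Genes outside this rule that are named in the text were chosen after their values were seen. Alternatives were DESeq2 1.42.0, median-ratio size factors, library totals, no count filter, a minimum of 10 counts per sample, limma on log2(TPM + 0.1), another set of samples in the fit, the replicate number as a block, and each sample left out. The replicates are biological replicates according to the study, and what they share is not stated in the labels. In data simulated for Ad-hHIF2 against Ad-GFP (14700 genes, of which 191 were changed), the edgeR test recovered 65.6% of genes changed 2-fold and 91.6% of those changed 4-fold, and 5.66% of its calls were false. In the measured data 29.5% of genes were called, a far larger share than was changed in the simulation, so these rates need not hold there. Figures were drawn with matplotlib 3.10.9 in Python 3.11.15.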

Additional observations from a re-analysis of the deposited data

How the results depend on the processing

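Of 352 values of single genes under the alternatives, 308 kept their direction and side of the threshold, 31 lost their call and 13 changed sign, and no gene of the 10 that changed sign had an adjusted p below 0.05 under that setting. Jag1 was the only one of the 10 called at 2-fold under every alternative in both comparisons of Ad-hHIF2. Between Ad-hHIF2 and Ad-GFP, the called genes of the 10 went from 5 to 3 with library totals and 1 in limma on log2(TPM + 0.1), where 6 pathway genes and 1109 of all genes passed, and Notch1 was at -0.063 and Jag2 at 0.061. Calls that were higher made up 53.9% in the main fit, 80.8% with library totals and 81.1% with TPM. With each sample left out, 3 to 5 of the 10 were called and Notch1 ran from 0.000 to 0.12. Between Ad-hHIF1 and Ad-GFP, no count filter gave 1 pathway gene, 384 genes and 138 at 2-fold, DESeq2 gave 144 and 1, and the fit of 9 samples 7 and 2. On the TPM scale Dll4 was at 0.006, Jag1 at 0.017 and Jag2 at 0.081, and with each sample left out Hes1 ran from -0.007 to 0.12, Notch1 from -0.244 to 0.036 and Dll1 from -0.001 to 0.13. Between Ad-hHIF2 and Ad-hHIF1, 3 of the 10 were called without a count filter and 1 with TPM, where 4 pathway genes, 460 genes and 408 at 2-fold passed. Higher calls there made up 53.3% in the main fit, 72.3% with library totals and 82.8% with TPM. Notch3 was at 0.035 with library totals and at 0.038 with TPM. With each sample left out, 3 to 5 of the 10, 2594 to 3624 of all genes and 585 to 1160 at 2-fold were called, and Notch3 ran from -0.372 to 0.093. The cause of these shifts was not tested.

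Correlations between same-numbered samples were weak, the lowest being 0.075, -0.08 and -0.18 in the 3 comparisons. Between Ad-hHIF2 and Ad-GFP they averaged 0.097, against -0.048 for different numbers. Whether the replicate numbers pair the samples is thus not known. With the replicate block, 3 of the 10 were called between Ad-hHIF2 and Ad-hHIF1, and no other call among the 10 changed. Dll4 and Notch3 had the fewest counts of the 9 detected genes and, where tested, the widest intervals. Atoh1, with 0 counts, could not be tested.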

Other observations

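Genes of the lineages that Notch signaling separates were mostly low. Exceptions included Nupr1 of the Paneth list at 58.2 to 97.5 CPM, Avil of the tuft list at 44.08 to 56.15 CPM and Krt20 of the absorptive list at 34.3 to 53.3 CPM. All 10 enteroendocrine genes were too low to be tested, the Paneth genes Defa24 and Ang4 had 0 counts in every library, and the stem cell gene Olfm4 did not exceed 0.128 CPM. For the counts that follow, 15.9% of all genes were higher and 13.6% lower between Ad-hHIF2 and Ad-GFP. Of 13 transcription factors of secretory fate 5 were tested between Ad-hHIF2 and Ad-GFP and 0 passed (edgeR), Sox4 being the most abundant at 89.3 to 133.6 CPM. Of 7 tuft cell genes 2 were tested in that comparison, Avil and Dclk1, and 0 passed. Of 7 goblet genes 3 were tested in that comparison, of which 1 was lower and 2 did not pass. The lower one, Muc2, which encodes the main goblet cell mucin, was at 4.65, 5.43 and 7.50 CPM in Ad-GFP and at 1.62, 1.49 and 2.01 CPM in Ad-hHIF2 samples (log2 fold change -1.77, adjusted p = 0.000882, edgeR), and Spink4, which did not pass, was at 0.51. Of 7 stem cell genes tested, 1 was higher, Slc12a2 (0.29, adjusted p = 0.0188), 2 were lower, Sox9 and Cdca7 (-0.72), and 4 did not pass, with a median log2 fold change of 0.29. Sox9, a transcription factor of crypt base cells, was at 6.72, 6.29 and 11.9 CPM in Ad-GFP and at 2.26, 2.75 and 2.94 CPM in Ad-hHIF2 samples (-1.63, adjusted p = 0.0023, edgeR). Lgr5 (1.84), Axin2 (1.02) and Prom1 (0.39) did not pass. The only Paneth list gene tested, Nupr1, was higher (0.55, adjusted p = 0.000888, edgeR), and of 6 absorptive genes tested only Apoa4 passed, at 2.22 to 2.81 CPM in Ad-hHIF2 and at most 0.0277 CPM in Ad-GFP samples. In Ad-hHIF1 organoids no gene of these lists passed, as was true of 0% of all 15233 genes. Muc2 was at 3.46, 4.07 and 3.53 CPM there, below every control, and was not called (log2 fold change -0.66, adjusted p = 0.517, edgeR).

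The summed level of 11 mesenchymal and mural markers was 13.7 to 21.1 CPM in Ad-GFP, 11.6 to 14.5 CPM in Ad-hHIF2 and 11.1 to 23.1 CPM in Ad-hHIF1 samples, and that of 8 immune markers 11.2 to 16.0, 14.3 to 19.4 and 8.73 to 10.9 CPM. None of the 7 tested mesenchymal and mural markers passed between Ad-hHIF2 and Ad-GFP (edgeR). Of 3 tested immune markers, Csf1r rose (log2 fold change 1.46, adjusted p = 0.0475) and Ptprc fell (-3.92, adjusted p = 0.00472, edgeR). Cd68, the most abundant immune marker at 7.97 to 14.81 CPM over all libraries, did not pass (0.38, adjusted p = 0.179, edgeR). Their part in the levels of the Notch genes was not tested.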
